A study of Mus musculus with 16 samples.

Results

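Among 16 pooled RNA-seq libraries of newborn Man1a2 mouse pups, 8 held liver RNA in bulk, and these fell into a pair of transcriptome states. The 8 were selected on their measured albumin (Alb) level, at least 50000 CPM (gene count scaled to the library total), and assigned to a set by the correlation of their expression values. The pups came from heterozygous parents carrying a deletion of the second exon of Man1a2, which encodes a mannosidase that trims N-glycans. These parents were bred from Man1a2 mutant and C57BL/6J mice. The parents drank N-acetylcysteine (NAC) at up to 1 g/kg, or water as placebo, from a week before breeding until delivery. NAC is an antioxidant that restores glutathione. Pups were wild-type (WT), heterozygous or null and were watched for 24 h, so that dead pups were harvested after death within that time and live pups at its end. By the paper's account every null pup, with NAC or placebo, died within 1 h of birth. RNA of 3 experiments was pooled into each library, or of 2 for dead heterozygous pups, so each label group was 1 library, and a library's values carry no replicate error.

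Set A held the libraries of live WT placebo, live heterozygous placebo, live heterozygous NAC and dead null NAC pups. Set B held those of live WT NAC, dead heterozygous NAC, dead heterozygous placebo and dead null NAC pups. Below, 4 values for set A or set B are given in these orders. The submitters labelled 4 of the 8 libraries as lung, namely live WT placebo and live heterozygous placebo in A and dead heterozygous NAC and dead null NAC in B, and the other 4 as liver. The labelled tissue went against the content of those 4: raw Alb was 51003 to 86186 CPM in set A and 91486 to 101254 CPM in set B, and Hnf4a, a transcription factor of hepatocytes, was 213.1 to 492 CPM over all 8. Sftpc, the surfactant protein of alveolar type II cells, reached at most 3.10 CPM in them. The libraries are named here by their pup label alone, and "liver-content" describes what they held. The highest Alb among the other 8 libraries was 9280 CPM, in the library labelled lung of dead null placebo pups, which also held Sftpc at 5553 CPM. The remaining 7 had Alb at 135 CPM or less.

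The perinatal liver changes its work at birth. Before birth it is the main site of red cell formation and receives glucose from the placenta, and with suckling it turns to burning milk fat, making ketone bodies and glucose, and clearing drugs, steroids and bile acids through cytochrome P450 and conjugating enzymes. Much of this program is driven by nuclear receptors. Stimuli such as low oxygen and tissue injury can also induce short-lived transcription factors of the immediate early class.

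Total counts were 14115802 to 16107749 per library, and the means of the sets, 15268400 in A and 14733700 in B, differed without passing a two-sided exact permutation test (p = 0.286, 4 libraries against 4, smallest possible p 0.0286). Values below are CPM scaled by trimmed mean of M values (TMM) over the 8 libraries, and differences are set medians, A minus B, on the log2(CPM + 0.5) scale, which understates changes of low genes. A gene is called separated when the sets do not overlap and this difference is at least 1 in size. Since the sets were formed from these same expression values, the differences between them describe the sets and carry no test.

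The correlation of log2(CPM + 0.5) over 12993 genes, all averaging 1 CPM or more, was 0.971 to 0.990 within set A (6 pairs) and 0.937 to 0.972 within set B (6 pairs), against 0.885 to 0.959 between them (16 pairs). Set A was the tighter of the sets. The library of dead null NAC pups in set B stood farthest out, at 0.937 to 0.961 with its own set and 0.885 to 0.907 with set A. The ranges touched: the pair of live heterozygous NAC (A) and dead heterozygous NAC (B) reached 0.959, higher than some pairs within set B. These points share their genes and scaling and are a description. Membership was the same by Spearman correlation, with the 1000 most variable genes, with complete linkage and with library size as the scaling. An Alb threshold of 10000 CPM selected the same 8 libraries, so it could not change membership.

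**Figure D1:**
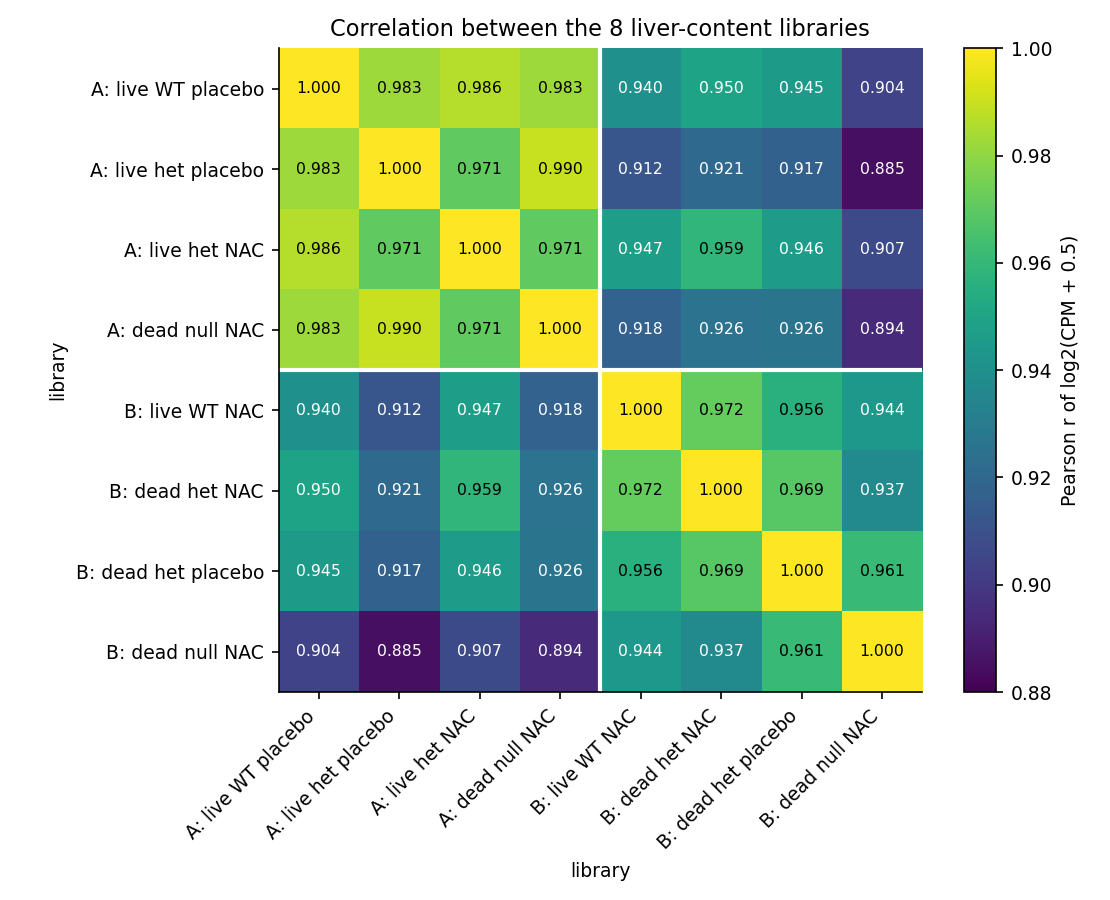
Pearson correlation of log2(CPM + 0.5) between each pair of the 8 liver-content libraries, with set A first and set B second on both axes and white lines between the sets. The upper left block (A with A) runs from 0.971 to 0.990, the lower right (B with B) from 0.937 to 0.972, and the blocks between sets from 0.885 to 0.959.

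No label matched the sets exactly. Dead pups gave 1 library of set A and 3 of set B (Fisher's exact test, two-sided, p = 0.486, adjusted over 3 labels 1, smallest possible 0.0286), NAC pups gave 2 and 3, and libraries labelled liver 2 and 2 (both p = 1, adjusted 1). Dead null NAC pups gave a library to each set, 1 labelled liver (A) and 1 labelled lung (B). Between these 2 libraries 1538 genes were at least 2-fold higher in A and 1571 at least 2-fold higher in B, 23.9% of those measured, whereas live heterozygous placebo and dead null NAC libraries, both in set A, were 2-fold apart at 0.993% of genes. With 1 library a side, neither count has a replicate check. Xist, the RNA of the inactive X chromosome, was at 0.337 raw CPM in the dead null NAC library of set A and at 216 in that of set B, so the 2 pools differed in sex make-up. The other labels of these libraries, genotype, outcome and treatment, could not be checked in these data, and every label contrast below rests on them.

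Man1a2 itself (chromosome 3, 100562208-100685503, - strand in GRCm38) overlapped between the sets, at 27.5, 37.9, 41.3 and 27.2 CPM in A and 23.7, 30.6, 32.9 and 28.1 in B. The dead null libraries, 27.2 and 28.1 CPM, lay beside the WT libraries, at 27.5 and 23.7. Counts were summed over the whole gene and the deletion takes 1 exon, so this level does not check the genotype. None of 20 N-glycan trimming and processing genes was separated, and the list median was 0.13.

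Of the 12993 genes, 491 were separated and higher in A (3.78%) and 461 separated and higher in B (3.55%). At any size of difference the sets did not overlap for 4116 genes (31.7%), 2274 with A higher and 1842 with B higher. Gene list counts below are to be read against these shares and against the median of all genes, 0.01. Just inside the limit of 1 lay Ddt and Nipsnap1 and just outside it Nnt and Gprc5c, all at 1.00 after rounding. Leaving out single libraries moved the 491 to between 425 and 660 and the 461 to between 361 and 718, the last without the live heterozygous NAC library of set A. Without the outlying dead null NAC library of set B the counts were 444 and 492. With library size alone as the scaling, which set the median of all genes at 0.12, they were 671 and 321.

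The widest gaps with set A higher lay at enzymes of detoxification. Sult2a1, a sulfotransferase for steroids and bile acids (chromosome 7, 13796246-13837409, - strand), stood at 93.1, 108, 81.1 and 80.5 CPM in set A and at 1.26, 3.29, 2.41 and 2.52 CPM in set B, a difference of 4.88. Every A library was far above every B library, and within each set the values lay close together. Its close relative Sult2a2 was 43.8 to 71.9 CPM in A and 3.25 to 3.70 in B, and reads of these near-identical copies may not have been divided reliably.

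Cyp1a2, a cytochrome P450 of drug and caffeine metabolism (chromosome 9, 57676937-57683703, - strand), stood at 25.7, 50.3, 45.4 and 38.9 CPM in A and at 0.518, 1.07, 0.953 and 1.06 CPM in B, a difference of 4.82. All 4 libraries of set B were near or under 1 CPM. Of 28 cytochrome P450 genes measured, 11 were separated and higher in A and 1 higher in B, with a list median of 0.98. Cyp3a59 was 28.8 to 61.2 CPM in A against 1.11 to 2.92 in B and Cyp2c37 127 to 248 against 31.2 to 40.7. Cyp2b9 was 63.1 to 81.0 CPM in A, while in set B the live WT NAC library, at 42.1, was nearer to set A than the 3 dead pups' libraries, at 8.94 to 11.4. The exception was Cyp2c70, an enzyme of muricholic acid synthesis in mice, at 33.1 to 136 CPM in A and 141 to 222 in B. The P450 genes of 1 family are close in sequence, so single members are less certain than the list.

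Other enzymes of the same work moved alongside. Ugt2b1, which attaches glucuronic acid to steroids and drugs, was 44.5 to 47.7 CPM in A and 5.59 to 8.58 in B. Rdh9, a retinol dehydrogenase, was 43.4 to 71.8 against 5.57 to 10.3 CPM, and Ephx1, the microsomal epoxide hydrolase, 80.3 to 144 against 24.3 to 36.1. Of 33 genes of glutathione metabolism and NRF2 response, the pathway that NAC feeds, 5 were separated and higher in A and 0 higher in B, with a median of 0.33. Those 5 were Gsta2, Gstm4, Prdx1, Ephx1 and Aox1. Nqo1, Gclc and Gclm, classical NRF2 targets, had differences of 0.03, -0.03 and 0.03.

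Fatty acid oxidation and ketone body synthesis gave the largest count among the lists higher in A. Of 37 genes measured, 24 were separated and higher in A and 1 higher in B, with a list median of 1.18. Crot, which exports shortened acyl groups from peroxisomes as carnitine esters (chromosome 5, 8966033-8997324, - strand), stood at 508, 704, 303 and 565 CPM in A and at 79.6, 53.8, 43.1 and 34.3 in B, a difference of 3.46. Its lowest A library, live heterozygous NAC, was still above every B library. Acaa1b, the peroxisomal thiolase, stood at 349.8, 785, 254 and 527 CPM in A and 57.5, 78.4, 56.3 and 65.4 in B. Cyp4a14, a fatty acid omega-hydroxylase, stood at 1841, 1916, 1065 and 1628 CPM in A and 156, 368, 350.3 and 144 in B. In all 3 genes the live heterozygous NAC library was the lowest of set A.

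A step in mitochondria was higher in A as well. Bdh1, which makes beta-hydroxybutyrate, was 531 to 726 CPM in A and 75.3 to 157 in B, a difference of 2.10. Cpt1a, the gate of fatty acids into mitochondria, was not separated: its B libraries ran from 146 to 439 CPM and overlapped set A at 346 to 548. Ppara, the nuclear receptor for fatty acids that drives many of these genes, differed by 0.24 and overlapped. Angptl4, an inhibitor of lipoprotein lipase, was the 1 gene of the list higher in B, at 95.6 to 234 CPM against 46.2 to 82.0.

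Oxidative phosphorylation differed in a small and even way. Of 77 nuclear-encoded subunits, 0 were separated, but the sets did not overlap for 54 of them with A higher and 1 with B higher, and the list median was 0.48. Of 38 proteasome subunits, 0 were separated and 15 did not overlap with A higher, with a median of 0.28. Of 78 ribosomal proteins, 0 were separated and all 78 overlapped, with a median of 0.22.

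Lipoprotein and bile acid genes were also higher in A. Apoa4, an apolipoprotein of liver and gut that follows fat load, stood at 1259, 1324, 351 and 1683 CPM in A and at 24.1, 88.8, 109 and 67.2 CPM in B, a difference of 4.05. The live heterozygous NAC library was again the lowest of A. Of 14 apolipoprotein genes 5 were separated and higher in A and 0 in B, and 12 did not overlap with A higher. Tm6sf2, needed to load triglyceride onto secreted lipoproteins, was 16.9 to 22.3 CPM against 3.495 to 5.10. Of 17 bile acid genes 5 were separated and higher in A and 1 in B, among them Slco1b2, an uptake carrier of hepatocytes, at 219 to 326 against 57.4 to 167 CPM. Cyp7a1, the rate-limiting enzyme of bile acid synthesis, differed by -0.33 and overlapped.

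Among 26 liver transcription factors, 5 were separated and higher in A and 1 in B. Nr0b2, the repressor SHP, was 16.3 to 22.5 CPM in A and 2.74 to 10.5 in B. Nr1i3, the xenobiotic receptor CAR that drives Cyp2b genes, was 34.8 to 63.6 against 12.8 to 25.5 CPM, and Nr1h3, the oxysterol receptor LXR alpha, 37.5 to 48.5 against 9.08 to 22.6. Hnf4a and Cebpa, which help define hepatocytes, had differences of 0.08 and 0.22 and overlapped. The fetal liver genes Afp, H19 and Igf2 had differences of -0.06, 0.11 and 0.06 and overlapped too.

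**Figure D2:**
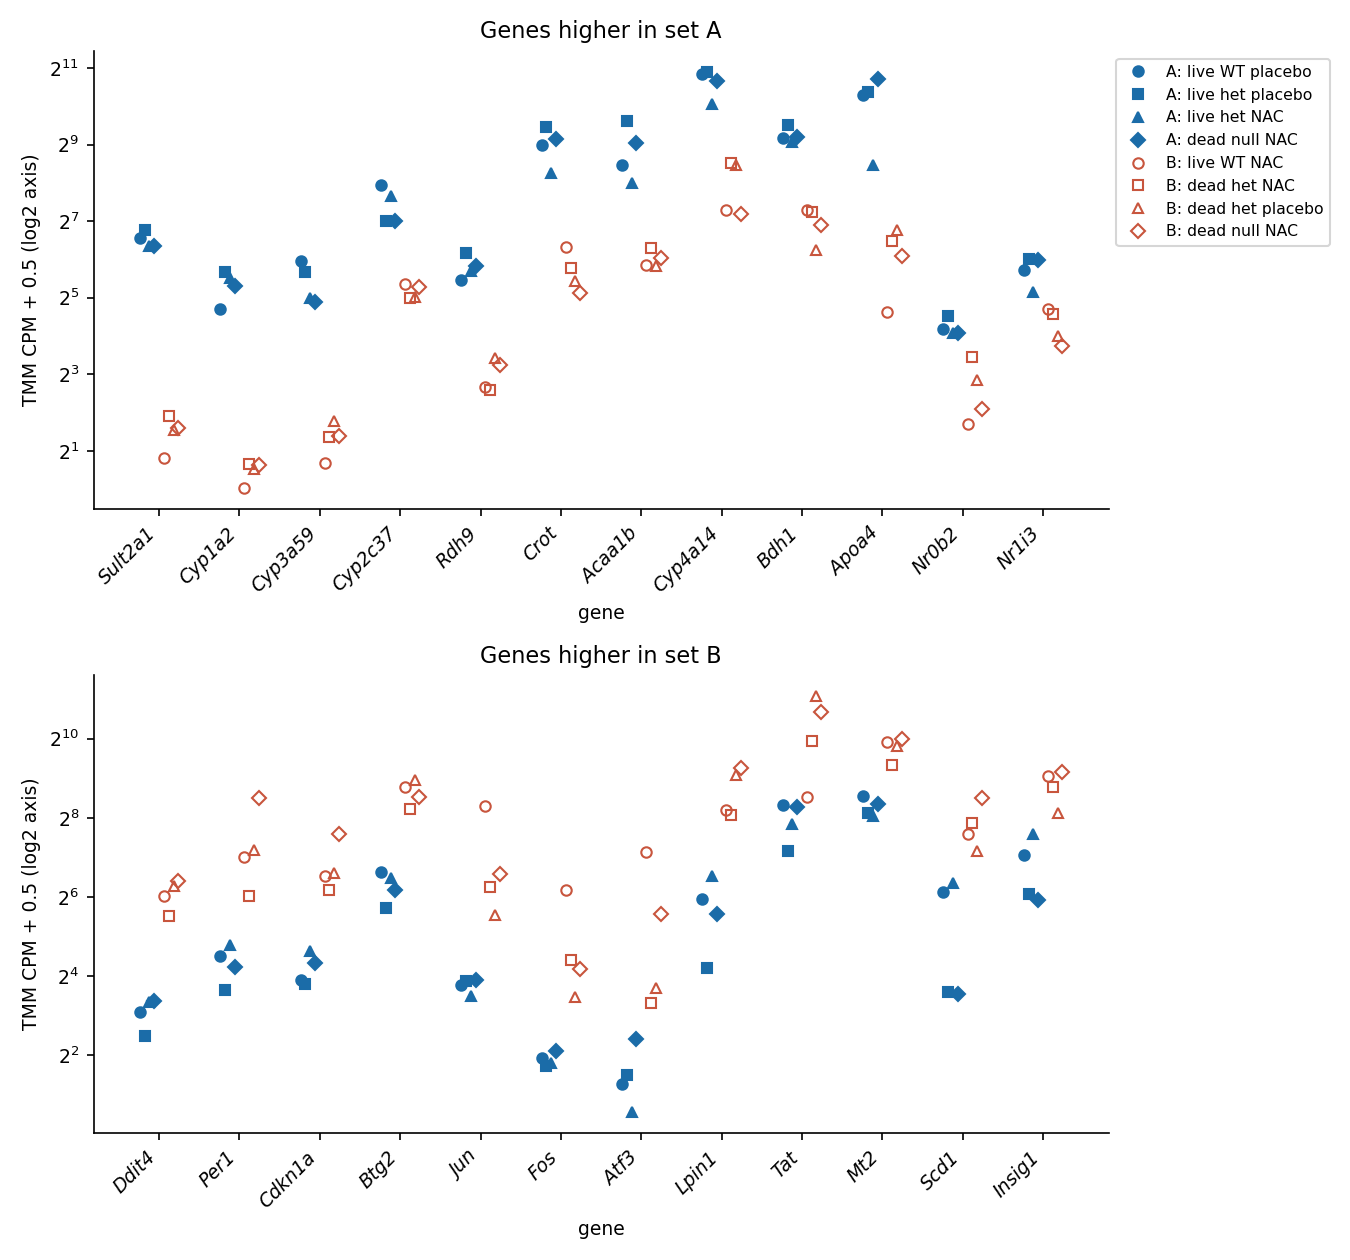
TMM-scaled CPM + 0.5 on a log2 axis for 12 genes higher in set A (upper panel) and 12 higher in set B (lower panel). Each point is 1 library, filled blue for set A and open red for set B, with 1 marker shape per pup label. The sets do not overlap for any of the 24 genes, and the gap is widest for Sult2a1 and Cyp1a2 and narrow for Tat and Nr1i3.

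Set B was marked by genes that cells turn on soon after a stimulus. Summed muscle markers were also higher in B, at 146 to 958 CPM against 11.9 to 39.4 in A, and their part in the results for set B below was not tested. Of 27 immediate early genes, 16 were separated and higher in B and 0 in A, with a list median of -1.60. Jun, a subunit of the AP-1 transcription factor, stood at 13.3, 14.2, 10.8 and 14.5 CPM in set A and at 313, 75.2, 46.5 and 95.7 CPM in set B. Fos, its partner, stood at 3.29, 2.81, 2.96 and 3.78 CPM in A and 71.4, 20.5, 10.5 and 17.6 in B. Atf3, a stress-induced repressor, stood at 1.90, 2.32, 0.966 and 4.77 CPM in A and 139, 9.52, 12.4 and 46.99 in B. The live WT NAC library was the highest of all 8 for these 3 genes, while set A lay in a narrow range for Jun and Fos.

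Btg2, an antiproliferative gene, was 52.5 to 98.7 CPM in A and 298 to 493 in B, a difference of -2.32. Gadd45b, a stress sensor, was 5.73 to 15.7 against 43.4 to 75.8 CPM. Not every gene of the class differed: Egr1, another immediate early transcription factor, was 38.5 to 87.1 CPM in A and 21.1 to 136 in B, overlapping, with a difference of 0.20.

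The sequences upstream of some of these genes are shown because the set B genes include known targets of cyclic AMP and of CREB and ATF factors, whose short half-site is TGACG. Of the 12921 measured genes with an unambiguous symbol, 9852 matched a RefSeq promoter (GRCm38.p6), and the 250 bases before each start were searched on both strands. The half-site was present in 19.8% of all 27025 promoters, in 30.0% of those of measured genes, in 20.2% of separated genes higher in A, in 27.7% of those higher in B, and in 7 of 15 separated immediate early genes with a promoter (46.7%). Another motif searched, the E-box CACGTG, was in 9.83% of promoters of measured genes and 11.1% of those of separated genes higher in B. It was in 5 of the same 15 immediate early genes (33.3%). Capitals mark the half-site or its reverse complement in the first 3 sequences, and TATAAA, a core promoter element that places the start of transcription, in the fourth, that of Cyp1a2. TATAAA was found in 14.3% of all promoters, in 8.46% of those of measured genes and in 6 of 11 separated P450 genes (54.5%). A match is a description of letters and was not tested as a site of binding.
Fos (chr12:85473640-85473889, + strand): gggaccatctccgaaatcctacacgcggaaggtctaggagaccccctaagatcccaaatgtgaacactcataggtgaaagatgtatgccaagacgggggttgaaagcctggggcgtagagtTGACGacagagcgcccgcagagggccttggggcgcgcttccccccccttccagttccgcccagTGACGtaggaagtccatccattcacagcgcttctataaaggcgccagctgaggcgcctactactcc
Btg2 (chr1:134079156-134079405, - strand): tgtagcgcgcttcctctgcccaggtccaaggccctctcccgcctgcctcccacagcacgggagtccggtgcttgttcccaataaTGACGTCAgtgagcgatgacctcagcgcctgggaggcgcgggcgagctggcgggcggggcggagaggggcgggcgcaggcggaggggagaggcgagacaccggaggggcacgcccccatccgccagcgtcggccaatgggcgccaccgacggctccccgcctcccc
Dusp1 (chr17:26508473-26508722, - strand): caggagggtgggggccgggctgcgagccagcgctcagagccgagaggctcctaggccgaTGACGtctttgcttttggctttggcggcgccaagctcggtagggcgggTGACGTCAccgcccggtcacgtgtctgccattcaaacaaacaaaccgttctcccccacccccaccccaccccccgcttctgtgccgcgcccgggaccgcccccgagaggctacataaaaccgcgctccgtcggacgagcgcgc
Cyp1a2 (chr9:57683656-57683905, - strand): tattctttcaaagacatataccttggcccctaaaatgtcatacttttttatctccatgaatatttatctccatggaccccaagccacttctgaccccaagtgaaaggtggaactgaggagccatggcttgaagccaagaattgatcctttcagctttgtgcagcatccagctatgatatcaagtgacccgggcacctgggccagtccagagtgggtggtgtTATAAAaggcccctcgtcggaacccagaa

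In the upstream windows of Btg2 and of Dusp1, a phosphatase that shuts off MAP kinases, the half-site and its reverse complement overlapped into the full palindrome shown in 8 capitals. Dusp1 was 20.7, 17.1, 18.7 and 21.4 CPM in set A and 177, 67.6, 35.9 and 74.9 in set B. Within set B the live WT NAC library was the highest and dead heterozygous placebo the lowest, as for Jun and Fos.

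Genes that respond to glucocorticoids were the second large group higher in B. Of 16 measured, 11 were separated and higher in B and 0 in A, with a median of -1.55. Several of them answer to other signals as well and stand on more than 1 list. Ddit4, an inhibitor of mTOR also induced by hypoxia (chromosome 10, 59949669-59951834, - strand), stood at 7.96, 5.06, 9.66 and 9.78 CPM in A and at 64.4, 45.3, 77.2 and 84.7 in B, a difference of -2.94. The sets were far apart and each was narrow. Per1, a clock gene with a direct glucocorticoid response, stood at 22.2, 11.96, 27.2 and 18.1 CPM in A and at 128, 64.97, 145 and 364 in B. Its highest value was in the outlying dead null NAC library.

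Tsc22d3, which encodes the glucocorticoid-induced leucine zipper, was 15.1 to 20.9 CPM in A and 48.5 to 76.1 in B. The metallothioneins Mt1 and Mt2, which bind zinc and copper, were 425 to 648 against 876 to 1542 and 264 to 372 against 641 to 1019 CPM. Fkbp5, another classical target, was 76.6 to 87.9 CPM in A and 70.4 to 102 in B and overlapped. Tat, tyrosine aminotransferase, which degrades tyrosine for glucose synthesis after birth, stood at 321, 142, 229 and 308 CPM in A and at 371, 983, 2169 and 1631 in B. The live WT NAC library was just above set A, and the 3 libraries of dead pups lay well above it.

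That division within set B recurred for enzymes of amino acid breakdown. Sds, serine dehydratase, stood at 20.0, 9.94, 19.1 and 26.4 CPM in A and 12.2, 148, 297 and 99.7 in B, so the live WT NAC library was within the range of set A and the sets overlapped. Got1, aspartate aminotransferase, stood at 217, 104, 149.8 and 250.3 CPM in A and 164, 662, 2252 and 1143 in B, and Sgk1, a kinase induced by glucocorticoids, at 31.1, 36.0, 28.8 and 44.9 and 42.3, 158, 382 and 247. In each of the 3 genes the libraries of dead pups in B were above all others, and the library of dead null NAC pups in A was not with them. Pck1 and G6pc, the key enzymes of glucose synthesis, overlapped, at 773 to 1321 against 689.7 to 2235 CPM and 194 to 313 against 165 to 1052.

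Growth arrest and stress genes were higher in B too. Of 14 genes of the p53 and arrest list 7 were separated and higher in B and 0 in A. Cdkn1a, the cell cycle inhibitor p21, stood at 14.4, 13.4, 24.4 and 19.7 CPM in A and 92.3, 71.4, 97.2 and 192 in B, a difference of -2.46. Mdm2 and Bax, other p53 targets, had differences of -0.25 and 0.07 and overlapped. Of 41 hypoxia targets, 6 were separated and higher in B and 0 in A, with a median of -0.72. The list count was 12 without the live heterozygous NAC library of A and 10 without dead heterozygous placebo of B. Slc2a1, the glucose transporter GLUT1, was 20.1 to 78.3 CPM in A and 108 to 159.5 in B. Vegfa, a central target of hypoxia, differed by -0.25 and overlapped.

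Lipid synthesis gave single large differences. Scd1, the stearoyl-CoA desaturase, stood at 69.8, 11.6, 81.5 and 11.2 CPM in A and at 191, 234, 143 and 364 in B, and Insig1, a sterol sensor, at 132, 66.4, 192 and 60.3 in A and 535, 438, 277 and 568 in B. In A the dead null NAC and live heterozygous placebo libraries were the lowest for both. The 22 fatty acid synthesis genes went both ways, with 2 separated and higher in A and 2 in B, Scd1 among the latter, and a median of -0.50. Over the 25 cholesterol synthesis genes, 0 were separated and higher in A and 1 in B, which was Insig1. That count was 6 without live heterozygous NAC of A and 5 without dead heterozygous placebo of B. Lpin1, a phosphatidate phosphatase that also serves as a coactivator, was 18.1 to 91.8 CPM in A and 269 to 612 in B.

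Of 22 acute phase genes, 8 were separated and higher in B and 0 in A, with a median of -0.74. Fgb, the fibrinogen beta chain, was 3238 to 5676 CPM in A and 7774 to 11192 in B. Cebpb and Cebpd, transcription factors of this response, were 9.10 to 16.3 against 24.2 to 43.2 and 9.03 to 13.9 against 22.2 to 34.7 CPM. Haptoglobin (Hp) and Crp had differences of 0.27 and -0.07 and overlapped. Without the outlying dead null NAC library of B the list count was 4, as it was with library size alone as the scaling.

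**Figure D3:**
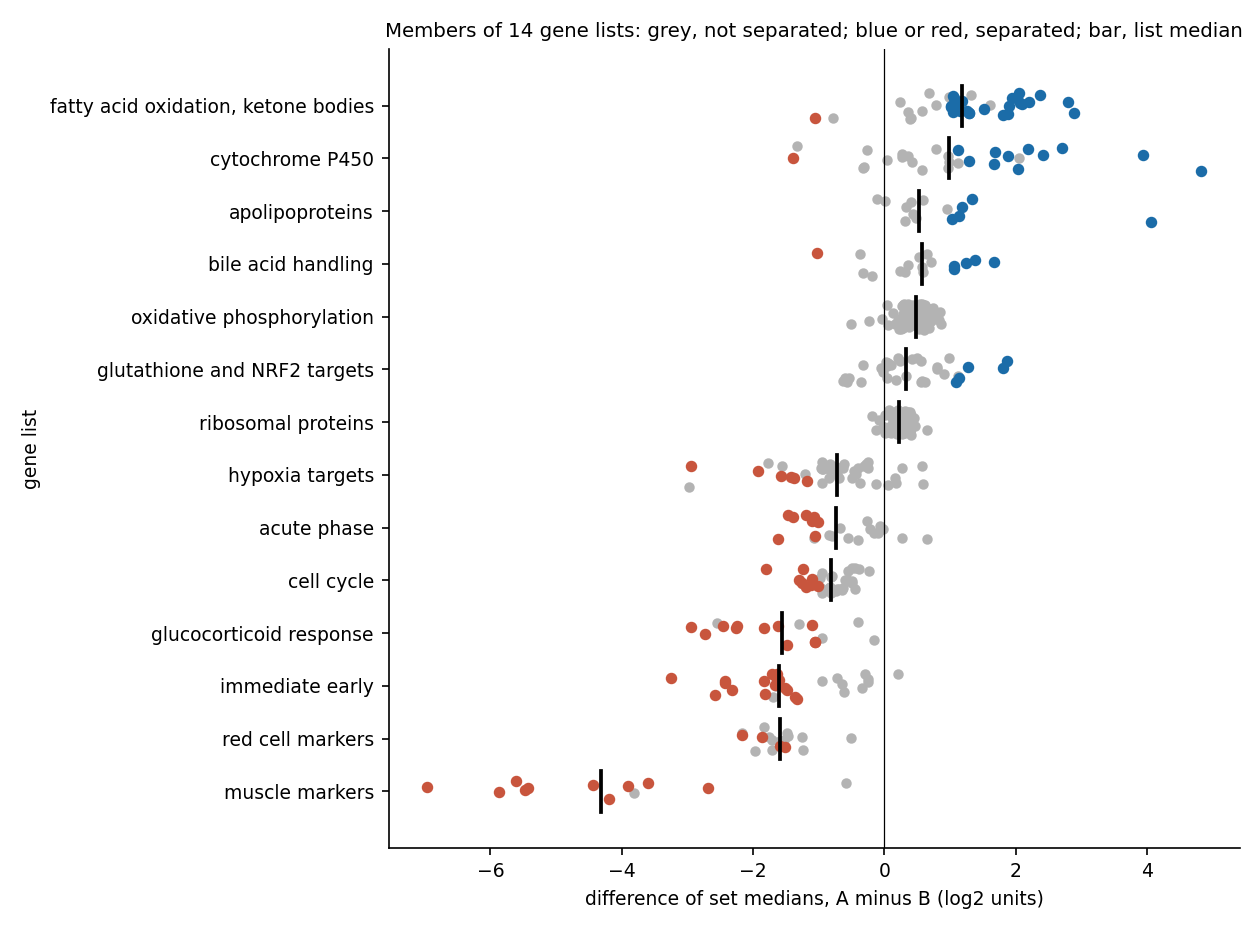
Differences of set medians, A minus B, in log2 units, for the measured members of 14 gene lists, 1 point per gene. Blue points are separated and higher in A, red points separated and higher in B, grey points not separated, and the black bar is the list median, which runs from -4.31 for muscle markers to 1.18 for fatty acid oxidation.

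Red blood cell and dividing cell RNA was higher in B, with less clear limits. The summed level of 17 red cell markers was 2617 to 9194 CPM in A and 9241 to 15804 in B, so the sets met. Of these 17, 4 were separated and higher in B and 0 in A, with a median of -1.59. Without the dead null NAC library of B, the lowest of its set, 16 were separated, without live heterozygous NAC of A 9 were, and with library size alone as the scaling 1 was. Slc4a1, the anion exchanger of red cells, was 836, 299, 1311 and 335 CPM in A and 2612, 2191, 2581 and 1120.5 in B, overlapping. In bulk RNA, fewer cells of a type and less RNA per cell cannot be told apart.

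Of 36 cell cycle genes 8 were separated and higher in B and 0 in A, and 26 did not overlap with B higher, with a median of -0.81. Mki67, a marker of dividing cells, stood at 424, 220.2, 665 and 213 CPM in A and 1209, 1103, 1033 and 672 in B, the highest A library lying just under the lowest B library. Cenpf, a protein of the kinetochore, was 22.6 to 45.8 against 64.6 to 76.4 CPM. The list count was 2 without live heterozygous placebo or without dead null NAC of set A, 16 without live heterozygous NAC and 15 without live WT placebo. With library size alone as the scaling it was 3. Set A thus divided for these genes and for red cell markers alike: live heterozygous placebo and dead null NAC were low in both, and live heterozygous NAC highest of A. Rn45s, a ribosomal RNA precursor, made up 4.54% and 6.29% of counts in the low libraries. It made up 1.24% in live heterozygous NAC and 1.99% in live WT placebo. In B it was 4.41% in dead null NAC and 0.845% to 1.83% in the others. Its part in these differences was not tested.

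Skeletal muscle RNA was present in all libraries of B and nearly absent from A. The summed level of 12 muscle markers was 11.9 to 39.4 CPM in A and 146 to 958 in B, the lowest of B being 3.71 times the highest of A. Of the 12, 10 were separated and higher in B and 0 in A, with a median of -4.31. Myh8, the perinatal myosin heavy chain (chromosome 11, 67277124-67308634, + strand), stood at 0.379, 1.22, 0.258 and 0.186 CPM in A and at 273, 67.5, 13.3 and 152 CPM in B. Acta1, skeletal muscle actin, stood at 2.97, 15.8, 3.73 and 3.40 CPM in A and at 293, 133, 53.7 and 291 CPM in B. Live WT NAC and dead null NAC held the most muscle RNA in B and dead heterozygous placebo the least, and in A live heterozygous placebo held the most. Fibroblast genes followed part of this order, with Col1a1, type I collagen, at 37.6, 30.8, 46.5 and 75.4 CPM in A and 194, 79.8, 93.9 and 252 in B.

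Muscle RNA and the separated genes of the groups named above were all higher in B. Those genes were picked for that direction, so only their order within B is compared here. Within B the muscle sum was highest in live WT NAC, then dead null NAC, dead heterozygous NAC and dead heterozygous placebo. Of 16 separated immediate early genes 5 followed this same order, Jun and Dusp1 among them, and 10 were highest in live WT NAC. Of 11 separated glucocorticoid genes 1 followed it, of 7 p53 and arrest genes 0 and of 8 acute phase genes 0. Over all 460 genes separated and higher in B with an unambiguous symbol, muscle genes included, the share was 12.8%.

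Hepatocyte markers went both ways. Of 12, the sets did not overlap for 3 with A higher and 3 with B higher, 6 overlapped, and the list median was 0.10. Their summed level was 77993 to 116244 CPM in A and 118655 to 153047 in B, but 60.1% to 77.4% of it was Alb, on which the libraries were selected. Without Alb the other 11 summed to 31116 to 35377 CPM in A and 29542 to 36862 in B and overlapped. Sums of 12 macrophage markers (753 to 977 CPM in A, 487 to 989 in B), 12 endothelial markers (465 to 511 in A, 380.4 to 641 in B) and 7 measured lung markers (49.7 to 72.0 in A, 66.8 to 82.3 in B) overlapped. Neutrophil markers (2213 to 3416 CPM in A, 3376 to 4392 in B), stellate and fibroblast markers (523 to 714 in A, 667 to 1418 in B) and bile duct markers (487 to 843 in A, 842 to 1446 in B) were shifted toward B with a slight overlap. Sftpc, the marker of alveolar type II cells, was low, at 0.0621 to 3.10 raw CPM over both sets.

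**Figure D4:**
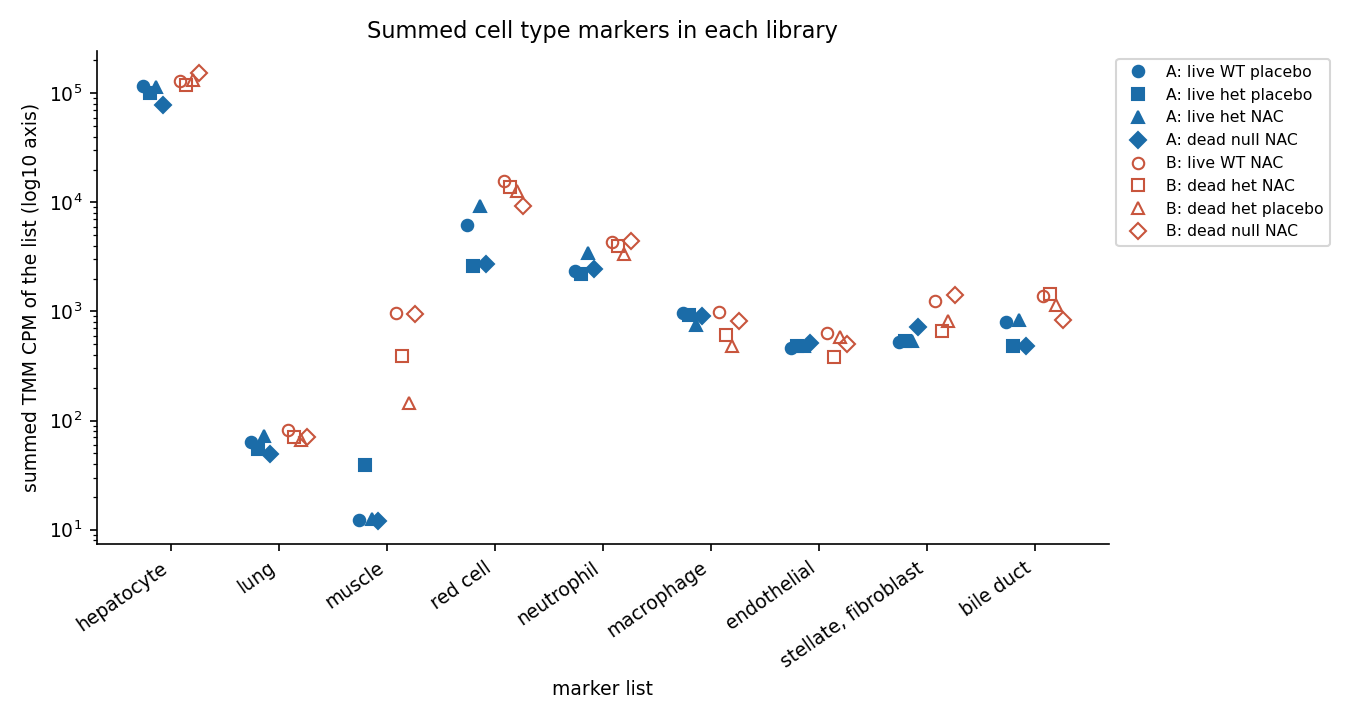
Summed TMM-scaled CPM of 9 cell type marker lists in each of the 8 libraries, on a log10 axis, filled blue for set A and open red for set B. Muscle markers separate the sets most, at 11.9 to 39.4 CPM in A and 146 to 958 in B, while macrophage, endothelial and lung markers overlap and most of the hepatocyte sum is Alb.

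The label contrasts test what the rule did not use. Among the 8 libraries, edgeR's quasi-likelihood test with Benjamini-Hochberg adjustment called 0 of 12993 genes (0.0%) between 4 live and 4 dead pups' libraries, with 790 genes at an unadjusted p under 0.05, and DESeq2 called 26, of which 25 were higher in dead pups. It called 0 genes (0.0%) between 5 NAC and 3 placebo libraries, with 214 at an unadjusted p under 0.05 and 0 by DESeq2. With genotype and outcome as a block, over the 6 libraries that form 3 pairs of NAC and placebo, it called 4 of 12963 genes (0.0309%), all higher in NAC. Among the 4 were Ctrb1 and Cela3b, digestive enzymes of the pancreas, which stood at 192 and 21.3 CPM in dead heterozygous NAC, 23.4 and 2.58 in live heterozygous NAC, and at most 1.79 and 0.406 in the other 6 libraries. It called 0 genes (0.0%) between 4 libraries labelled lung and 4 labelled liver, with 28 at an unadjusted p under 0.05 and 0 by DESeq2. Outcome and harvest time cannot be told apart.

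The gene with the smallest p for live against dead was Ass1, argininosuccinate synthase of the urea cycle, at 40.5, 22.7, 34.6 and 74.2 CPM in set A and 35.2, 99.8, 114 and 90.7 in set B. Its log2 fold change, live minus dead, was -1.51 (edgeR adjusted p = 0.5). The dead null NAC library of A was highest of its set for Ass1, and also for Sds, Got1 and Sgk1. Sds had a log2 fold change of -3.22, Got1 of -2.76 and Sgk1 of -2.59 (edgeR adjusted p = 0.67, 0.67 and 0.67), and DESeq2 called all 4. Without the dead null NAC library of A, edgeR called 18 genes, Ass1, Sds, Got1, Sgk1, Tat and Cyp2b9 among them. Live then meant 3 libraries of A and 1 of B and dead 3 of B, so outcome and set are nearly the same split.

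For 6 of the 8 libraries another library with the same genotype, outcome and treatment labels held lung RNA, and these 6 were not used to form the sets. They are not all from the same pups: Xist was at 254 raw CPM in the liver-content library of dead heterozygous placebo pups and at 0.457 in its lung-content counterpart. Comparing 3 lung-content libraries with set A labels (live heterozygous NAC, live heterozygous placebo, live WT placebo) with 3 of set B labels (dead heterozygous NAC, live WT NAC, dead heterozygous placebo), edgeR called 0 of 14012 genes (0.0%), with 126 at an unadjusted p under 0.05. DESeq2 called 3, Ankrd1, Inmt and Reg3g, all higher with set B labels. Inmt, an amine methyltransferase, had a log2 fold change of -2.05 there, while in liver content it was separated and higher in A, by 2.82. Both libraries of dead null NAC pups held liver RNA, so these pups have no value here. The 3 A libraries were all of live pups and 1 was of NAC pups, while 2 of the 3 B libraries were of dead pups and 2 of NAC pups, so neither outcome nor treatment is independent of set.

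Of 428 genes separated and higher in B that could be tested in lung content, 297 (69.4%) were higher with set B labels there too, with a median log2 fold change of -0.15. Of 346 genes separated and higher in A, 201 (58.1%) were higher with set A labels, with a median of 0.05. Over all genes the share higher with set A labels was 50.8%. With treatment as a term in the fit, a choice made after seeing the data, these shares became 42.8% and 24.3%, against 47.5% of all genes higher with set A labels, and edgeR again called 0 genes, with 387 at an unadjusted p under 0.05. Without the dead heterozygous placebo library they were 77.3% and 70.8%. The direction in lung content thus depended on whether treatment was in the fit.

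At an unadjusted p under 0.05 stood 16 of the 428 genes, 14 of them in the same direction, and 4 of the 346, 0 of them in the same direction, beside 0.899% of all genes. Of those 14, Actc1 and Ckm are on the muscle list, and Actn2, Hspb7, Lmod2 and Tnnt1 are also genes of striated muscle.

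The 27 immediate early genes had a median of -0.66 in lung content, the 16 glucocorticoid genes -0.54 and the 22 acute phase genes, of which 18 were measured, -0.52. With treatment as a term these medians were -0.30, -0.13 and -0.25. Other lists did not carry over: the 36 cell cycle genes, higher in B in liver content, had a median of 0.30 with and without the term. The 11 muscle genes measured had -0.12 without the term and 0.16 with it, and 30 fatty acid oxidation genes -0.01 and -0.17. Ddit4 was at 185, 18.3 and 26.4 CPM with set A labels and 127, 136 and 27.1 with set B labels in lung content, and Cdkn1a at 559, 47.2 and 51.2 CPM with set A labels and 394, 435 and 64.98 with set B labels. For both genes every NAC library was above every placebo library, and among NAC libraries the one with set A labels was the highest. Their log2 fold changes were -0.35 and -0.45 without the treatment term and 0.13 and 0.03 with it. Fos was at 147, 19.2 and 29.1 CPM with set A labels and 106, 785 and 27.9 with set B labels, so that live WT NAC alone was far above the rest. Its log2 fold change was -2.24 without the term and -0.93 with it, and that of Jun -1.22 and -0.45 (edgeR adjusted p = 1.00 for each of the 4 genes without the term).

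**Figure D5:**
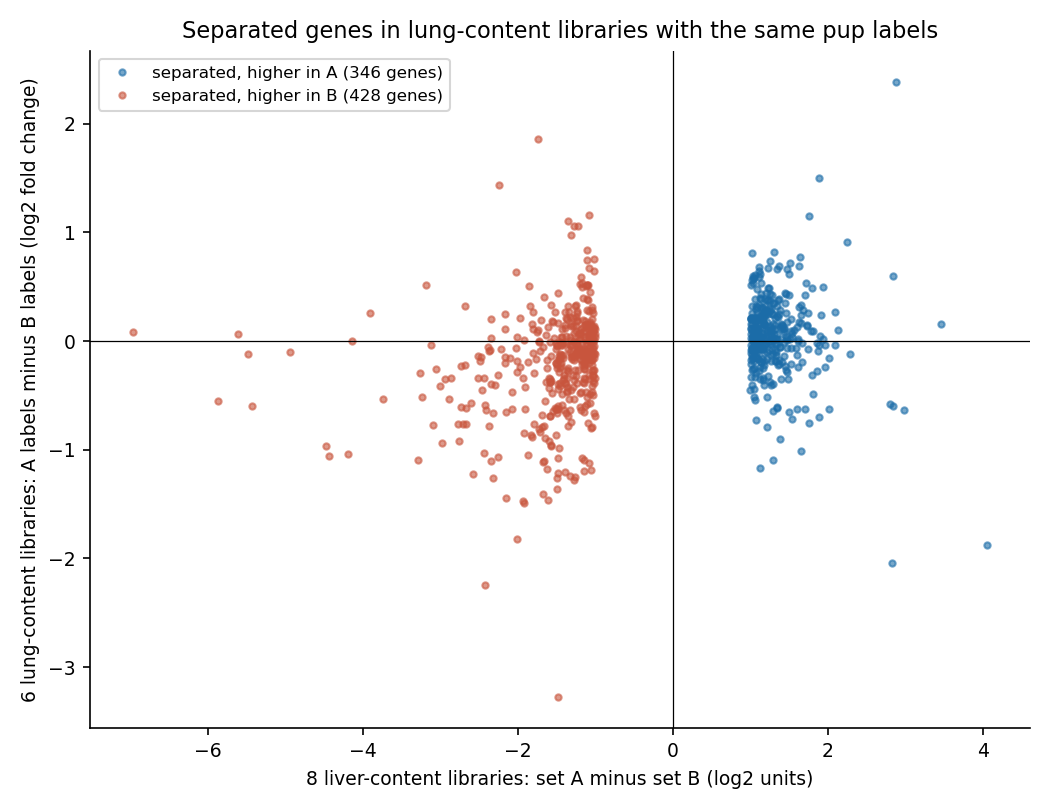
Each point is a gene separated between the sets in the 8 liver-content libraries (x axis, A minus B, log2 units) with its log2 fold change between lung-content libraries carrying the same pup labels (y axis, 3 of A labels minus 3 of B labels, no term for treatment). The 428 genes higher in B (red) lie below 0 on the y axis in 69.4% of cases and the 346 higher in A (blue) above 0 in 58.1%.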

How the data were processed

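The authors extracted total RNA, prepared polyA libraries with a stranded kit, trimmed adapters, aligned reads to Ensembl Mouse.B38 (mm10 in the submitters' processing notes) with the Omicsoft aligner and kept uniquely mapped reads; their notes name R 4.0.3 and edgeR 3.30.3. As deposited, each symbol has an estimated count without normalization. They were rounded to whole numbers here, since the design had been written for counts. The annotation release, strand use and the sharing of reads between genes were not given in the sources used here. Of 25054 gene entries, 329 symbols stood on several and were kept apart and named nowhere, and 3 list genes were left out for this.

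The 8 liver-content libraries, 14115802 to 16107749 counts each, were chosen from measured Alb and correlation. The members, gene lists and comparisons were chosen with earlier results of these data known. Genes averaging 1 CPM or more were kept. Scaling was TMM in edgeR 4.0.16 (R 4.3.3), and differences were taken on log2(CPM + 0.5). Label contrasts and lung-content libraries were tested with edgeR's quasi-likelihood test at an adjusted p of 0.05, with DESeq2 1.42.0 as an alternative. On simulated data with 200 genes changed 4-fold, each contrast recovered 200 of 200, with 4 to 14 others called. The simulation gave every gene the same spread, smaller than the median spread in the data, and changed only well expressed genes. It therefore does not show which changes the contrasts could find here.

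Named genes were Man1a2, Alb, Hnf4a, the 15 genes each way with the widest gap between sets at a mean of at least 10 CPM, and the 4 members of each list with the largest difference at 5 CPM. Tsc22d3, Fkbp5, Egr1, Dusp1, Cpt1a, Pck1, G6pc, Gsta2, Aox1, Inmt, Actn2, Hspb7, Lmod2, Tnnt1, Ctrb1, Cela3b and the overlapping genes given beside each list were named after their values were seen. Alternatives were the scaling, filter, pseudocount, tool and single libraries left out, and, added after the data were seen, a term for treatment or a block on genotype and outcome. Positions come from GENCODE on GRCm38 and promoters from RefSeq. Figures used matplotlib 3.10.9, and tables pandas 2.3.3 and numpy 2.4.6 in Python 3.11.15. Mitochondrially encoded transcripts were not analysed here, and some genes are not reported here.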

Additional observations from a re-analysis of the deposited data

Results flagged for a closer look

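In groups of 4 libraries a lone value far from the other 3 can be marked by Dixon's test, which by chance marks about 1 in 20 groups. Of 230 sets of 4 values examined here, 10 were marked. In set A, Acta1 (15.8 CPM) and the summed muscle markers (39.4 CPM) were high in the live heterozygous placebo library, and Angptl4 (46.2 CPM) and Actc1 (0.193 CPM) were low in live heterozygous NAC. In the dead null NAC library of A, Hp (2881 CPM) and Xist (0.309 CPM) were low and the summed stellate and fibroblast markers (714 CPM) high. In set B, Cyp2b9 (42.1 CPM) was high in live WT NAC, Cela3b (21.3 CPM) high in dead heterozygous NAC and Agxt (121 CPM) low in dead null NAC. The other libraries of the 8 held Xist at 171 to 460.3 raw CPM.

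Outside the 8 libraries, the library labelled lung of dead null placebo pups held Alb at 9280 CPM, above the 135 CPM or less of the other 7 libraries, beside lung RNA.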

How the results depend on the processing

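Membership of the sets did not change under any of 5 alternatives, but the Alb threshold of 10000 CPM selected the same libraries and could not have changed it. With a mean of at least 10 CPM required, the separated genes were 317 higher in A and 303 higher in B, fewer because fewer genes were tested, and over the other alternatives of scaling, filter and pseudocount they were 338 to 671 and 321 to 509. Leaving out single libraries gave 425 to 660 higher in A and 361 to 718 higher in B. Of 2547 values of the named genes under the alternatives, 2509 stayed within the spread of a set, 38 moved by more and 0 changed sign. Without 1 library, named genes that stopped being separated numbered 2 to 12, most without dead null NAC of B, among them Fgb, Mt1, Cebpb, Slco1b2, Cry2 and Angptl4. Fgb, Mt1, Mki67, Angptl4 and Cyp2c70 were not separated with library size alone. Over all lists, 864 of 990 counts of separated members were within 1.5 times the main count.

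The label contrasts called 0 genes in edgeR under every scaling and filter tried. DESeq2 called 3 genes in the lung-content libraries and 26 for live against dead, and the cause of that difference between tools was not tested. Leaving out single libraries gave 0 to 18 called genes for live against dead, the 18 without dead null NAC of A, and 0 for the other 3 contrasts. Where a group fell to 2 libraries, the fit pooled the spread. No paired analysis by replicate number was possible because each label group is 1 library, all numbered 1. Added after seeing the data, a fit of NAC against placebo over the 6 libraries whose genotype and outcome have both treatments, with genotype and outcome as a block of 3 pairs, called 4 genes, all higher in NAC, with 1536 at an unadjusted p under 0.05. Treatment as a term in the lung-content comparison left 0 genes called.

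Each library is a pool, so the spread between libraries mixes label, pool and handling, and p-values measure that spread alone. With 3 counts as the floor, levels under 0.19 to 0.21 CPM could not be told from 0, which limits muscle genes in set A. Counts of 4 libraries cannot give an exact p under 0.0286.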

Other observations

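Clock genes did not move together: of 18 measured, 5 were separated and higher in B and 1, Per3 (7.92 to 17.5 CPM in A, 4.63 to 6.73 in B), higher in A. Cry2, a repressor of the clock, stood at 33.4, 27.5, 28.7 and 30.5 CPM in A and 51.1, 52.4, 194 and 219.6 in B, so in B the dead heterozygous placebo and dead null NAC libraries were the highest. Bmal1 (Arntl) and Clock, the activators, had differences of -0.42 and -0.06 and overlapped.

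Of 27 genes of the urea cycle and amino acid breakdown, 3 were separated and higher in A and 1, Tat, in B. Ftcd, which degrades histidine, was 282 to 342 CPM in A and 105 to 117 in B, and Agxt, which clears glyoxylate, 420.3 to 468 against 121 to 183. Both had a small spread in each set. Of cells lining the liver vessels, Clec4g, a marker of sinusoidal endothelium, was 26.2 to 37.1 CPM in A and 5.93 to 19.2 in B, and Vsig4, a marker of resident macrophages, 22.3 to 30.6 against 7.30 to 17.6. These are single members of lists whose sums overlapped.

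Heat shock genes were uneven in B. Hspb1, a small heat shock protein, was 0.885, 1.46, 1.48 and 1.79 CPM in A and 14.8, 6.77, 7.75 and 27.6 in B. Hspa1b, an inducible HSP70, was 4.68, 1.95, 5.54 and 4.89 CPM in A and 37.4, 38.2, 6.35 and 7.64 in B, higher in live WT NAC and dead heterozygous NAC than in the other libraries, and it has a near-identical copy, Hspa1a, so its reads may not have been divided reliably. Of 22 heat shock genes 3 were separated and higher in B and 0 in A.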
